A study of Mus musculus with 15 samples.

Results

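Transcripts of 10 neuronal calcium-binding protein genes were followed in single interneurons of the mouse hippocampus. The genes were chosen by name, as the rows of the expression table whose gene symbol was Pvalb, Calb1, Calb2, Necab1, Necab2, Ncald, Hpca, Hpcal1, Vsnl1 or Ncs1, and all 10 were found once among 43629 listed genes. Cytosol was drawn through a patch pipette from red fluorescent neurons of the CA1 area in organotypic hippocampal slice cultures, that is, slices of hippocampus kept alive on a membrane, made from C57BL6 mice of either sex at 6 to 7 days of age. The 15 cells comprised 5 VGT3+, 5 Pv+ and 5 Sst+ interneurons, and each cell gave 1 library. All mice carried a TdTomato reporter, switched on by VGT3-Cre (driven from Slc17a8, the gene of a vesicular glutamate transporter) in the VGT3+ cells, by Pv-Cre (driven from Pvalb) in the Pv+ cells and by Sst-Cre (driven from Sst) in the Sst+ cells. The study's authors described some leaky Cre activity outside the intended cells for the Pv-Cre and Sst-Cre lines. No animal or culture is named for any cell, and a separate mouse line was used for each type, so that effects of type and of line, animal or culture cannot be told apart. Each type therefore counted as 1 sample, no test between types was possible, and every SD below is a spread between cells.

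Calcium enters neurons with each action potential and is bound by proteins built around the EF-hand, a helix-loop-helix fold that holds a calcium ion. Buffers such as parvalbumin, calbindin and calretinin mainly limit the size and duration of calcium signals, and they have long been used in histology to divide hippocampal interneurons into classes. Neuronal calcium sensors such as hippocalcin and visinin-like proteins change shape when calcium binds, and many of them then move to membranes and act on receptors, channels and enzymes.

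Values are given as TPM (transcripts in every 1e+06), a share of all gene-assigned reads corrected for gene length, so levels can be compared between genes. The gene behind each label was found in its own type. Slc17a8 ranged from 106 to 354 TPM in the VGT3+ group and did not exceed 0.0327 TPM in the Pv+ group or 0.0516 TPM in the Sst+ group. Pvalb ranged from 3136 to 7383 TPM in the Pv+ group. Sst ranged from 1804 to 4539 TPM in the Sst+ group and did not exceed 0.348 TPM in the VGT3+ group or 0.458 TPM in the Pv+ group. Estimated depth, in units of 1e+06 gene-assigned reads, was 15.8 to 32.2 for VGT3+ cells, 13.2 to 18.5 for Pv+ cells and 14.1 to 22.4 for Sst+ cells. The number of genes above 0 ranged from 5463 in VGT3+ cell 3 to 11156 in a Pv+ cell. VGT3+ cells 1 to 3 carry the library code G556 in their titles, while VGT3+ cells 4 and 5 and all Pv+ and Sst+ cells carry G709, so values within G709 alone are given beside differences that moved with the code.

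The 3 types had different sets of these transcripts. Pv+ cells combined very high Pvalb with high Vsnl1, VGT3+ cells had Necab1 in every cell and Calb1 in 4 of 5, and Sst+ cells were the only cells here with Calb2 above 0. Ncs1 was above 0 in all 15 cells, Ncald and Hpca in 14 each, and Vsnl1 in 14. The heat map of the 10 genes shows this division, with the buffers in blocks by type, while Ncs1, Ncald, Hpca and Vsnl1 had cells above 0 in all types and Hpcal1 did not.

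**Figure D1:**
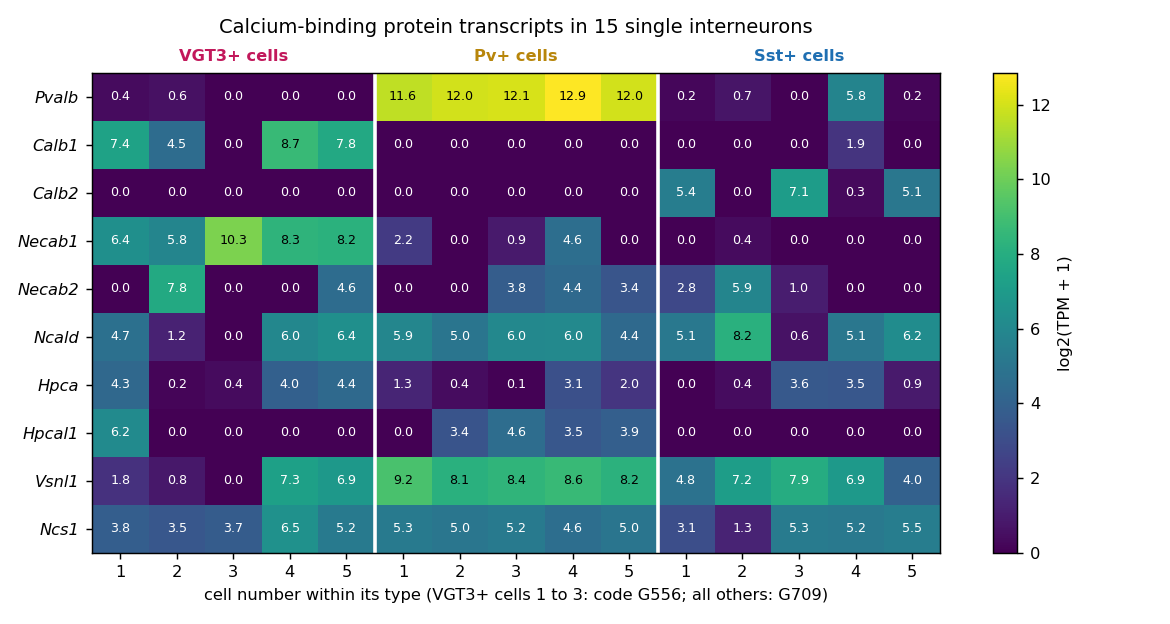
Each tile is the log2(TPM + 1) of 1 gene (rows) in 1 cell (columns, numbered within VGT3+, Pv+ and Sst+ interneurons), and the printed number is the same value. Pvalb fills the 5 Pv+ columns, Calb1 and Necab1 lie in the VGT3+ columns, Calb2 lies in the Sst+ columns, and Ncs1 is above 0 in all 15 columns.

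Pvalb encodes parvalbumin, the buffer by which fast-spiking basket and axo-axonic cells are recognised, and its gene lies at chr15:78191114-78206400 on the minus strand of GRCm38. Pvalb was at 0.301, 0.468, 0, 0 and 0 TPM across VGT3+ cells 1 to 5, at 3136, 4025, 4293, 7383 and 4068 TPM across Pv+ cells 1 to 5, and at 0.166, 0.643, 0, 55.1 and 0.117 TPM across Sst+ cells 1 to 5. Since the Pv+ cells were picked through Pvalb-driven Cre, their high level describes the selection. What the selection did not use is the level elsewhere: the values below 1 TPM correspond to 1 to 6 reads, whereas 55.1 TPM in Sst+ cell 4 corresponds to 482 reads. Sst+ cell 4 was thus the single cell outside the Pv+ group with Pvalb far above the level of a few reads, below the Pv+ mean of 4581 ± 1627 TPM (SD, n = 5 cells). VGT3+ and Sst+ cells overlapped in Pvalb.

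Calb1 encodes calbindin, a fast buffer, and lies at chr4:15881264-15908064 on the plus strand. Calb1 was at 167, 22.4, 0, 409 and 217 TPM across VGT3+ cells 1 to 5, was listed at 0 in all 5 Pv+ cells, and was at 0, 0, 0, 2.83 and 0.0251 TPM across Sst+ cells 1 to 5. VGT3+ cells 1, 2, 4 and 5 lay above every other cell, but VGT3+ cell 3 was at 0, so the ranges of the types overlapped. The mean was 163 ± 166 TPM in VGT3+ cells and 0.570 ± 1.26 TPM in Sst+ cells (SD, n = 5 each), a difference of 5.28 in mean log2(TPM + 1). In the 2 VGT3+ cells of G709 the mean was 313 TPM and the difference to Sst+ cells was 7.83. In the Pv+ cells, 3 reads of Calb1 would have given 0.0691 to 0.0957 TPM. This limit allows for counting error alone and not for transcripts lost before sequencing.

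Calb2 encodes calretinin, a buffer closely related to calbindin, and lies at chr8:110137502-110168210 on the minus strand. Calb2 was listed at 0 in all 5 VGT3+ and all 5 Pv+ cells and was at 42.6, 0, 136, 0.25 and 33.2 TPM across Sst+ cells 1 to 5. Sst+ cells 1, 3 and 5 held it at 33.2 TPM or more, and Sst+ cell 4 at the level of 3.66 estimated reads. The mean in Sst+ cells was 42.5 ± 55.9 TPM (SD, n = 5), and the limits of 3 reads were 0.140 to 0.289 TPM in VGT3+ cells and 0.192 to 0.266 TPM in Pv+ cells.

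The 3 buffers hardly met in the same cell. At a level of at least 10 TPM, 13 of 15 cells held exactly 1 of Pvalb, Calb1 and Calb2, 0 cells held more than 1, and VGT3+ cell 3 and Sst+ cell 2 held none. The 13 include the 5 Pv+ cells, which held Pvalb through their selection. What the selection did not use is that Calb1 and Calb2 were listed at 0 in them. Sst+ cell 4 counted through Pvalb. At a level of at least 1 TPM, 12 cells held exactly 1 buffer, and Sst+ cell 4 held a pair, Pvalb at 55.1 TPM and Calb1 at 2.83 TPM. Of the cells without a buffer, VGT3+ cell 3 had 3 of the 10 genes above 0, with Necab1 at 1255 TPM, and was the cell with the fewest genes above 0 overall. Sst+ cell 2 had 7 of the 10 above 0, with Ncald at 285 TPM. The part of detection in these 2 cells was not tested.

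**Figure D2:**
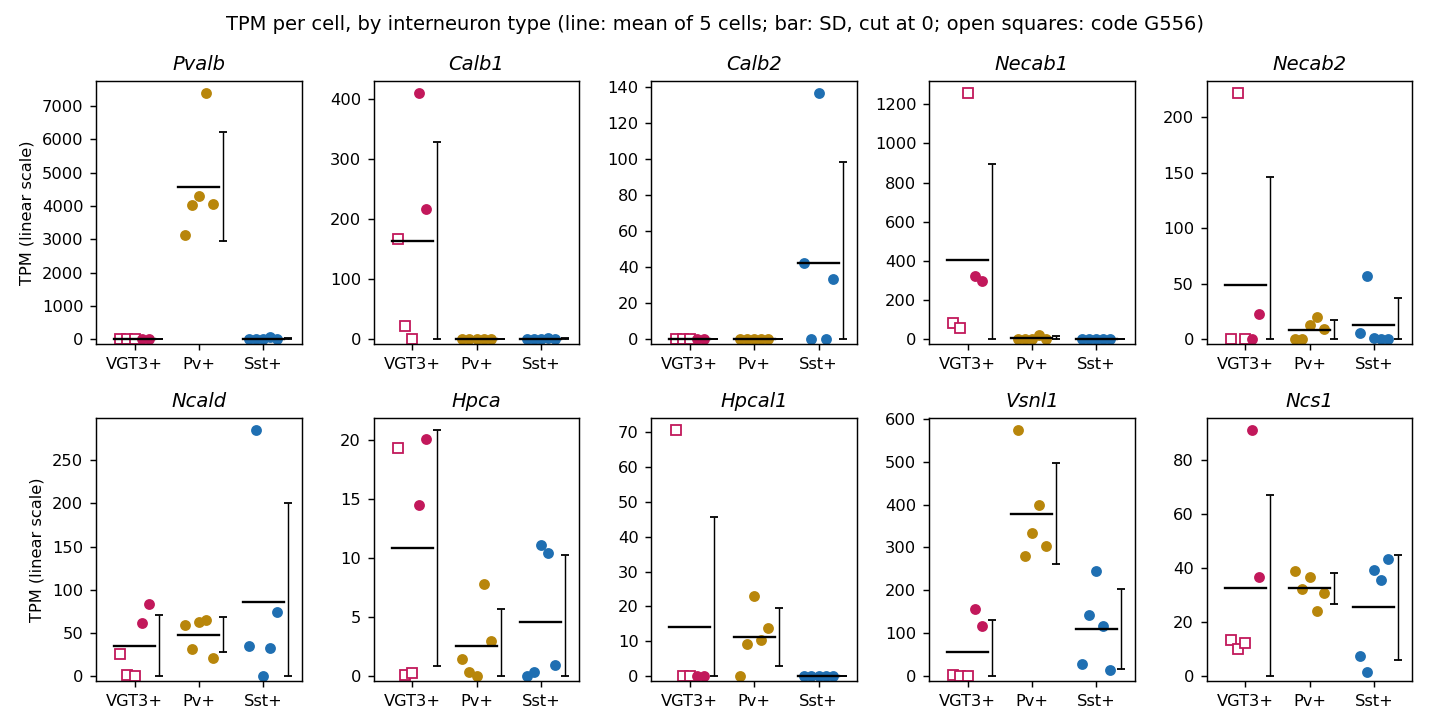
TPM of each gene (linear axes starting at 0, 1 panel per gene) in the single cells of VGT3+, Pv+ and Sst+ interneurons, with the mean as a line, the SD over 5 cells as a bar cut at 0, and open squares for the 3 VGT3+ cells of code G556. Pvalb and Vsnl1 of the Pv+ cells lie above all other cells, while for Ncs1 the 3 types share a range and a single VGT3+ cell reaches 91.0 TPM.

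Necab1 and Necab2 encode neuronal proteins with an EF-hand at one end and a monooxygenase-like domain at the other, and Necab2 is known to bind adenosine and metabotropic glutamate receptors. Necab1, at chr4:14952245-15149794 on the minus strand, was at 84.8, 56.5, 1255, 322 and 298 TPM across VGT3+ cells 1 to 5. It was at 3.57, 0, 0.907, 23.7 and 0 TPM across Pv+ cells 1 to 5, and at 0, 0.277, 0.0328, 0 and 0 TPM across Sst+ cells 1 to 5. Every VGT3+ cell lay above every cell of the other types, and it was the single gene of the 10 for which VGT3+ cells stood apart upwards from both. The means were 403 ± 491 TPM in VGT3+ cells, 5.65 ± 10.2 TPM in the Pv+ cells and 0.0619 ± 0.121 TPM in the Sst+ cells (SD, n = 5 each). The difference in mean log2(TPM + 1) was 6.27 for VGT3+ minus Pv+ and 7.74 for VGT3+ minus Sst+ cells, and within G709 it was 6.73 and 8.20. The order of Pv+ above Sst+ cells was not clear of the spread, since Pv+ cells 2 and 5 were at 0 as well. Necab1 shares some exonic bases with the antisense gene Gm11837, and reads of the 2 cannot be told apart in libraries that do not mark strand.

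Necab2, at chr8:119446719-119472640 on the plus strand, did not follow Necab1. It was at 0, 221, 0, 0 and 22.4 TPM across VGT3+ cells 1 to 5, at 0, 0, 12.7, 19.9 and 9.46 TPM across Pv+ cells 1 to 5, and at 5.84, 56.8, 1.07, 0 and 0 TPM across Sst+ cells 1 to 5. Each type had cells with and cells without it, and the means of 48.8 ± 97.0 TPM in VGT3+ cells, 8.41 ± 8.56 TPM in the Pv+ cells and 12.7 ± 24.7 TPM in the Sst+ cells (SD, n = 5 each) could not be ordered beyond their spread. The highest value in VGT3+ cells, 221 TPM, made up 70.7% of all transcripts of the 10 genes in that cell.

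Vsnl1 encodes visinin-like protein 1, a myristoylated sensor that moves to membranes with calcium, and lies at chr12:11325242-11436613 on the minus strand. Vsnl1 was at 2.53, 0.798, 0, 157 and 116 TPM across VGT3+ cells 1 to 5, at 574, 281, 335, 399 and 303 TPM across Pv+ cells 1 to 5, and at 27.8, 142, 244, 117 and 15.1 TPM across Sst+ cells 1 to 5. The lowest Pv+ cell lay above the highest cell of both other types, and the means were 55.2 ± 75.5 TPM in VGT3+ cells, 378 ± 118 TPM in the Pv+ cells and 109 ± 93.3 TPM in the Sst+ cells (SD, n = 5 each). The VGT3+ cells fell into low values in the 3 cells of G556 and values above 100 TPM in the 2 cells of G709. The difference for VGT3+ minus Pv+ cells was -5.15 over all cells and -1.43 within G709, where the ranges still did not overlap. The difference for VGT3+ minus Sst+ cells was -2.80 over all cells, -1.96 without VGT3+ cell 3 and 0.92 within G709, so its direction turned, and library code and cell cannot be told apart among the VGT3+ cells. The difference for Pv+ minus Sst+ cells was 2.35, all of it within G709, and it was 1.81 without Sst+ cell 5.

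Pvalb and Vsnl1 were the pair of members with their highest levels in Pv+ cells and no overlap with the other types, and Ncs1 was the member found in every cell, so the sequences just before their transcription starts are shown for comparison. They come from RefSeq (GRCm38.p6), where 6 of the 10 genes were matched (all but Calb1, Calb2, Necab1 and Ncald). Each runs 5′ to 3′ on the gene's strand and ends before the start of transcription in RefSeq and in GENCODE, whichever lies further upstream, with the CG dinucleotides in capitals. The Pvalb window is chr15:78206401-78206650 (minus strand), the Vsnl1 window is chr12:11436614-11436828 (minus strand), and the Ncs1 window is chr2:31245673-31245822 (plus strand).
Pvalb: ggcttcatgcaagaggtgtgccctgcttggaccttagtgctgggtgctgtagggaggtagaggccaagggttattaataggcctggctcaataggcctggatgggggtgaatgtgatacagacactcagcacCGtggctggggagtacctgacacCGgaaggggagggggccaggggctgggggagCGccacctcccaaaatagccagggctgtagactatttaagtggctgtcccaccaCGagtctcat
Vsnl1: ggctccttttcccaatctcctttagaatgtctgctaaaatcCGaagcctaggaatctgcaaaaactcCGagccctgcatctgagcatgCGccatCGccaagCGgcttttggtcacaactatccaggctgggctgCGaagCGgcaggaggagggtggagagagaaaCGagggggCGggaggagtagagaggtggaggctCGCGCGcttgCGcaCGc
Ncs1: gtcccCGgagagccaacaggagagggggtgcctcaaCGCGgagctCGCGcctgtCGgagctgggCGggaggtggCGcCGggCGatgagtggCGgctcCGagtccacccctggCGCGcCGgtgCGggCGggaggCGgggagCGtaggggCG
The Pvalb window held 4 CG dinucleotides in 250 bases (1.6 per 100 bases), the Vsnl1 window 14 in 215 bases (6.51 per 100 bases) and the Ncs1 window 20 in 150 bases (13.3 per 100 bases). For comparison, 32851 mouse promoters were cut to the same lengths by keeping their first bases, the end furthest from the start of transcription. Their medians were 2.4, 2.33 and 2 CG per 100 bases for the Pvalb, Vsnl1 and Ncs1 lengths. Pvalb thus lay below its median and Vsnl1 and Ncs1 above theirs. The letters TATAAA were in none of the 3 windows on either strand and in 12.4%, 9.75% and 7.29% of all promoters cut to the lengths of the Pvalb, Vsnl1 and Ncs1 windows. The letters CCAAT occurred 1 time in the Vsnl1 window, and 30.4% of all promoters of that length hold them. The letters GGGCGG occurred 1 time in the Vsnl1 window and 2 times in the Ncs1 window, and 27.7% of all promoters of the Vsnl1 length and 16.7% of the Ncs1 length hold them. These matches are descriptions of letters, and no binding was measured.

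Ncs1 encodes neuronal calcium sensor 1, a regulator of transmitter release and of a phosphatidylinositol kinase, and lies at chr2:31245823-31295989 on the plus strand. Ncs1 was at 13.2, 10.1, 12.3, 91.0 and 36.6 TPM across VGT3+ cells 1 to 5, at 38.8, 32.1, 36.6, 24.1 and 30.7 TPM across Pv+ cells 1 to 5, and at 7.45, 1.39, 39.0, 35.5 and 43.3 TPM across Sst+ cells 1 to 5. The means of 32.6 ± 34.3 TPM in VGT3+ cells, 32.4 ± 5.72 TPM in the Pv+ cells and 25.3 ± 19.4 TPM in the Sst+ cells (SD, n = 5 each) belonged to overlapping ranges. Ncs1 varied least among the Pv+ cells. In VGT3+ cells the 3 cells of G556 were all below 14 TPM and the 2 cells of G709 averaged 63.8 TPM, so that VGT3+ minus Pv+ was -0.49 over all cells and 0.83 within G709, and VGT3+ minus Sst+ was 0.49 over all cells and 1.81 within G709.

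Ncald encodes neurocalcin delta, a sensor that binds membranes and actin- and clathrin-associated proteins, and lies at chr15:37366175-37792570 on the minus strand. Ncald was at 25.4, 1.36, 0, 61.2 and 83.1 TPM across VGT3+ cells 1 to 5, at 59.5, 31.4, 62.5, 65.0 and 20.3 TPM across Pv+ cells 1 to 5, and at 34.5, 285, 0.566, 32.6 and 74.5 TPM across Sst+ cells 1 to 5. The types overlapped throughout, and the means of 34.2 ± 36.9 TPM in VGT3+ cells, 47.8 ± 20.5 TPM in the Pv+ cells and 85.4 ± 115 TPM in the Sst+ cells (SD, n = 5 each) did not differ beyond their spread. The difference for VGT3+ minus Pv+ cells was -1.81 over all cells and 0.70 within G709, and that for VGT3+ minus Sst+ cells was -1.39 and 1.12, so both turned with the code. Ncald shares exonic bases with Gm28221 on the opposite strand and Gm49397 on its own.

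Hpca encodes hippocalcin, a sensor of the slow afterhyperpolarisation that is best known from hippocampal pyramidal cells, and lies at chr4:129111570-129122036 on the minus strand. Hpca was at 19.3, 0.111, 0.285, 14.6 and 20.1 TPM across VGT3+ cells 1 to 5, at 1.48, 0.329, 0.0465, 7.80 and 2.95 TPM across Pv+ cells 1 to 5, and at 0, 0.344, 11.1, 10.4 and 0.918 TPM across Sst+ cells 1 to 5. Its means of 10.9 ± 9.99 TPM in VGT3+ cells, 2.52 ± 3.17 TPM in the Pv+ cells and 4.56 ± 5.69 TPM in the Sst+ cells (SD, n = 5 each) were low in all types and overlapped. Within G709, both VGT3+ cells lay above every Pv+ and every Sst+ cell, with differences of 2.80 and 2.48, against 1.26 and 0.95 over all cells. Among markers of pyramidal cells in the same libraries, Slc17a7, their vesicular glutamate transporter, was at 3.05 TPM in 1 VGT3+ cell and listed at 0 in the other 14, whereas Camk2a, a calcium-dependent kinase, was above 0 in 13 cells and reached 14.2 TPM. Their part in the Hpca values was not tested. Hpca shares a few exonic bases with Tmem54 on the opposite strand.

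Hpcal1 encodes hippocalcin-like protein 1, a relative of hippocalcin and the visinin-like proteins, and lies at chr12:17690856-17791933 on the plus strand. Hpcal1 was at 70.7 TPM in VGT3+ cell 1 and listed at 0 in VGT3+ cells 2 to 5, was at 0, 9.23, 23.0, 10.3 and 13.9 TPM across Pv+ cells 1 to 5, and was listed at 0 in all 5 Sst+ cells. It was thus a low-level transcript of 4 of 5 Pv+ cells, at a mean of 11.3 ± 8.33 TPM (SD, n = 5), and was seen in a single cell of the other types. In the Sst+ cells, 3 reads would have given 0.197 to 0.305 TPM. VGT3+ minus Pv+ was -1.83 over all cells, below the fold of 4 used here, and -3.07 without VGT3+ cell 1. Within G709, Hpcal1 was listed at 0 in both VGT3+ and in all Sst+ cells.

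Each pair of types was then read against all genes. A difference was counted where mean log2(TPM + 1) differed by at least 2, that is 4-fold, in either direction, and the background was the 12825 genes whose mean over the 15 cells reached 1 TPM. All 10 genes passed this minimum, some only through the type in which they were high. On this scale a fold change of a low gene is understated, and for a gene listed at 0 in one type (Calb1 in Pv+, Calb2 in VGT3+ and Pv+, Hpcal1 in Sst+ cells) no fold is given. Pairs of types share cells, so their counts are not independent of each other.

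Between VGT3+ and Pv+ cells, 4 of the 10 genes passed the fold (Calb1 and Necab1 higher, Pvalb and Vsnl1 lower in VGT3+ cells), beside 16.3% of all genes. Ranges of cells did not overlap for 3 of the 10 (Necab1, Pvalb and Vsnl1), beside 4.66% of all genes. Pvalb was used to pick the Pv+ cells, and Vsnl1 stayed under the fold within G709. Between VGT3+ and Sst+ cells, 4 of the 10 passed the fold (Calb1 and Necab1 higher, Calb2 and Vsnl1 lower in VGT3+ cells), beside 16.3% of all genes, and ranges did not overlap for 1 of the 10 (Necab1), beside 1.51%. Between Pv+ and Sst+ cells, 4 of the 10 passed the fold (Pvalb, Hpcal1 and Vsnl1 higher, Calb2 lower in Pv+ cells), beside 15.3% of all genes, and ranges did not overlap for 2 of the 10 (Pvalb and Vsnl1), beside 5.07%. The median difference over the 10 genes was -0.24 for VGT3+ minus Pv+, 0.51 for VGT3+ minus Sst+ and 0.70 for Pv+ minus Sst+, where the median over all 12825 genes was 0, -0.000451 and 0. Members higher and lower numbered 4 and 5 for VGT3+ minus Pv+, 6 and 4 for VGT3+ minus Sst+, and 7 and 3 for Pv+ minus Sst+, so each pair had differences in both directions. A set of 1709 genes was above 0 in all 15 cells. Its median difference was 0.38 for VGT3+ minus Pv+, 0.06 for VGT3+ minus Sst+ and -0.30 for Pv+ minus Sst+. The part of such shifts in the calls above was not tested.

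**Figure D3:**
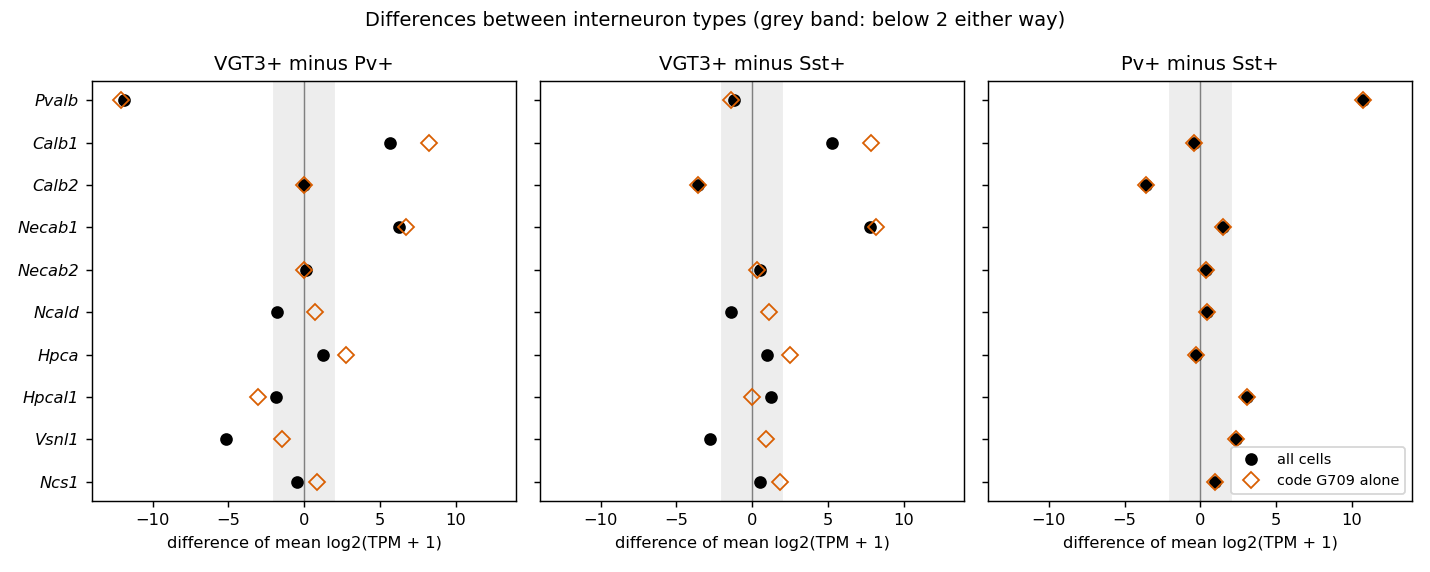
Difference of mean log2(TPM + 1) for each gene in VGT3+ minus Pv+, VGT3+ minus Sst+ and Pv+ minus Sst+ cells, over all cells (filled circles) and within library code G709 (open diamonds), with the range under the fold shaded. Vsnl1 in VGT3+ minus Sst+ cells lies at -2.80 over all cells and at 0.92 within G709, and differences to a type listed at 0 (Calb1, Calb2, Hpcal1) depend on the pseudocount of 1.

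Summed over the 10 genes, transcripts came to 762.5 ± 415 TPM in VGT3+ cells, 5067 ± 1638 TPM in the Pv+ cells and 292 ± 162 TPM in the Sst+ cells (SD, n = 5 each). Without Pvalb the sums were 762 ± 415, 486 ± 132 and 280 ± 167 TPM in VGT3+, Pv+ and Sst+ cells, which overlapped between all types, so the high total of the Pv+ cells was that of Pvalb alone. The make-up differed more than the total. In all 5 Pv+ cells Pvalb held the largest share, 82.2 to 93.1%, followed by Vsnl1. In VGT3+ cells the largest share belonged to Calb1 in cells 1 and 4 (43.6 and 38.8%), to Necab1 in cells 3 and 5 (99.0 and 37.5%) and to Necab2 in cell 2 (70.7%). In Sst+ cells it belonged to Calb2 in cell 1 (36.0%), to Ncald in cells 2 and 5 (58.6 and 44.6%) and to Vsnl1 in cells 3 and 4 (56.4 and 46.2%). The VGT3+ and Sst+ cells each had 3 different leaders among 5 cells. The lead of Pvalb in the Pv+ cells describes their selection through Pvalb-driven Cre. The genes used to pick the other types, Slc17a8 and Sst, are not among the 10. How alike the cells of a type were in their leading gene is therefore not compared between types.

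**Figure D4:**
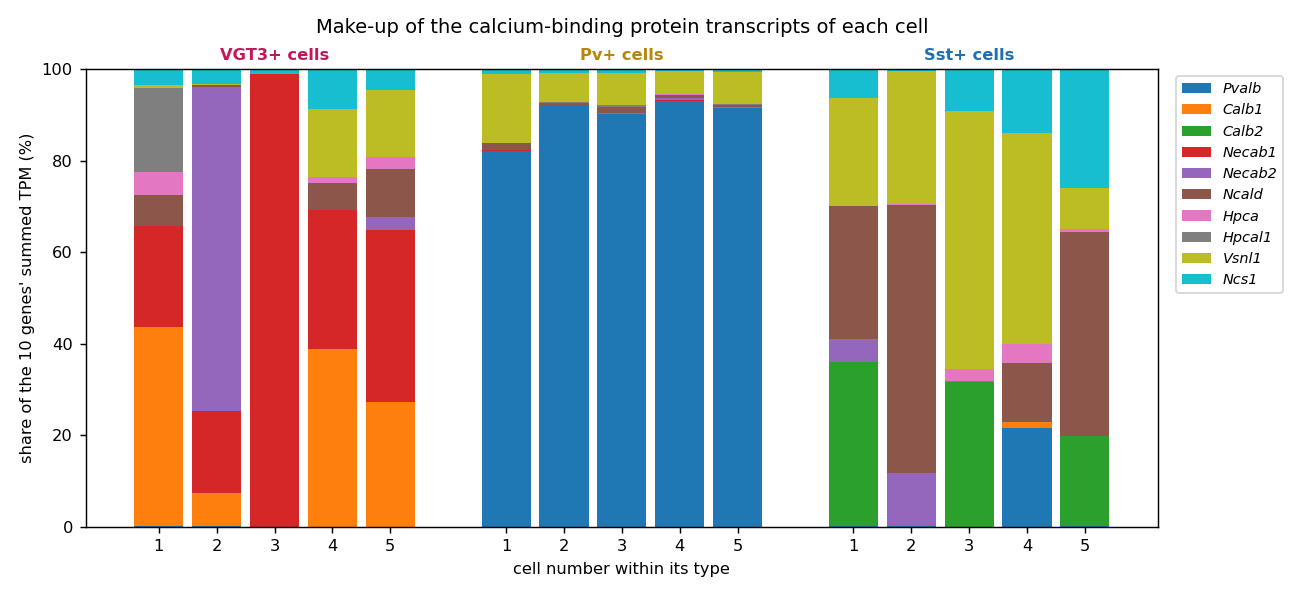
Share (in percent) of the summed TPM of the 10 genes that each gene held in each cell, with VGT3+, Pv+ and Sst+ cells numbered within their type. Pvalb, through which the Pv+ cells were picked, leads in all 5 of them, followed by Vsnl1. Calb1, Necab1 or Necab2 leads in the VGT3+ cells and Calb2, Ncald or Vsnl1 in the Sst+ cells.

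Likeness between the members was taken from all cells and within types. Over the 45 pairs of members, the median Pearson r of log2(TPM + 1) over 15 cells was 0.02 (range -0.51 to 0.66), as a description of cells that share type, line and library code. The highest were Calb1 with Necab1 (r = 0.66), Pvalb with Vsnl1 (r = 0.63) and Calb1 with Hpca (r = 0.63). After the type means were subtracted, these were -0.31, 0.05 and 0.67. That of Calb1 with Necab1 includes VGT3+ cell 3, with Calb1 at 0 and Necab1 at 1255 TPM. In the other VGT3+ cells both genes had the same order, so this value is not read as an absence within types. That of Pvalb with Vsnl1 is not read as an absence either. Pvalb was at 0.468 TPM or less in VGT3+ cells and, apart from cell 4, at 0.643 TPM or less in Sst+ cells. That of Calb1 with Hpca stayed high after this step but rests mostly on the VGT3+ cells, since Calb1 was at or near 0 elsewhere. Other pairs were further from 0 within types than over all cells: Calb1 with Vsnl1 (0.71 within types, -0.25 over all cells), Hpca with Vsnl1 (0.65 and 0.19), Calb1 with Ncald (0.65 and 0.08) and Pvalb with Calb2 (-0.64 and -0.40). The pairs with Calb1 rest mostly on VGT3+ cells and that with Calb2 on Sst+ cells, since Calb1 and Calb2 were at or near 0 elsewhere. Over the cells of G709, with type means kept, r was -0.08, 0.17, 0.19 and -0.55 for the pairs in the order above. Library code and cell cannot be told apart among the VGT3+ cells.

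The genes most like each member were taken from 5713 genes whose mean reached 10 TPM and that were above 0 in 5 cells or more. Pvalb was most like Syt2, a synaptotagmin that triggers fast transmitter release (r = 0.96), and Pthlh, a hormone related to parathyroid hormone (r = 0.96). Syt2 averaged 45.3 TPM and Pthlh 1454 TPM in Pv+ cells. After subtraction of type means r was 0.06 and -0.12, so this likeness was that between cells picked through Pvalb and the rest. Calb1 was most like Htr1a, a serotonin receptor (r = 0.94), and Ccdc71l (r = 0.93), and both still followed it after subtraction of type means (r = 0.85 and 0.82). Necab1 was most like Eps8, an actin-capping protein (r = 0.94), and Kctd16, an auxiliary subunit of GABA-B receptors (r = 0.92), with r of 0.66 and 0.31 after subtraction of type means, and Kctd16 was listed at 0 in all Pv+ and Sst+ cells. Calb2 was most like Gm3468 (r = 0.91) and Plxnc1, a semaphorin receptor (r = 0.90), with 0.81 and 0.79 after the same step.

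Necab2 was closest to Mrps6, a mitochondrial ribosomal protein (r = 0.90), and Wdr45b (r = 0.80). Ncald was closest to Atp5s (r = 0.90) and Gtf3c6, a subunit of a general transcription factor (r = 0.89). Hpca was closest to Rab21, a small GTPase of endosomes (r = 0.89), and Gapvd1 (r = 0.80), and Ncs1 to Kif2a, a microtubule-depolymerising kinesin (r = 0.90), and C1qbp (r = 0.85). Hpcal1 was closest to Lgi2 (r = 0.86) and the orphan nuclear receptor Esrrg (r = 0.84), and Vsnl1 to the synaptic scaffold genes Dlg3 (r = 0.84) and Dlgap1 (r = 0.83). All r are over the same 15 cells, were the highest among 5713 and are given as a description. With Spearman's rho the closest gene was the same for 3 of the 10 members, after subtraction of type means for 2 and within G709 for 4.

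Beside the members stood 3 lists of other calcium genes, in which upwards means higher in the type named first and the share of all genes past the fold is the one given above, 16.3%, 16.3% and 15.3% for the 3 pairs. Of 8 other neuronal calcium sensors, 1 passed the fold upwards and 1 downwards in VGT3+ against Pv+ cells, 2 upwards and 0 downwards in VGT3+ against Sst+ cells, and 2 upwards and 0 downwards in Pv+ against Sst+ cells, that is 2 of 8 in each pair. Kcnip1, a subunit of A-type potassium channels, averaged 89.5 ± 46.9 TPM in VGT3+ cells, 49.4 ± 36.8 TPM in the Pv+ cells and 3.01 ± 5.52 TPM in the Sst+ cells (SD, n = 5 each), and its lowest VGT3+ cell, at 17.6 TPM, lay above the highest Sst+ cell, at 12.7 TPM. Its relative Kcnip2 ranged from 1.38 to 15.2 TPM in Pv+ cells and was listed at 0 in all VGT3+ and Sst+ cells. Kcnip4 was at 62.4 ± 113 TPM in VGT3+ cells, listed at 0 in Pv+ cells and at 0.856 ± 1.91 TPM in Sst+ cells (SD, n = 5 each), from 3 cells above 0. Kcnip3 averaged 12.6 ± 28.2 TPM in VGT3+ cells and 11.9 ± 16.3 TPM in Sst+ cells (SD, n = 5 each) and was listed at 0 in Pv+ cells. The list is short and its count is not read beyond the share of all genes. The sensors of photoreceptors, Rcvrn, Guca1a and Guca1b, were listed at 0 in all 15 cells.

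Of 18 other EF-hand sensors and buffers, 1 passed the fold upwards and 3 downwards in VGT3+ against Pv+ cells, 0 upwards and 1 downwards in VGT3+ against Sst+ cells, and 1 upwards and 2 downwards in Pv+ against Sst+ cells. Calm2, a calmodulin gene, averaged 9485 ± 2609 TPM in VGT3+ cells, 8370 ± 1449 TPM in the Pv+ cells and 10378 ± 2631 TPM in the Sst+ cells (SD, n = 5 each), which in each type was above the mean sum of the 10 members. Of 13 calcium pumps and exchangers, 0 passed upwards and 1 downwards in VGT3+ against Pv+ cells, 0 upwards and 2 downwards in VGT3+ against Sst+ cells, and 0 upwards and 1 downwards in Pv+ against Sst+ cells. Atp2b1, a calcium pump of the plasma membrane, ranged from 3.29 to 27.2 TPM in VGT3+ cells against 67.7 to 188 TPM in Sst+ cells, without overlap. Slc24a2, a potassium-dependent sodium-calcium exchanger, averaged 5.09 ± 5.11 TPM in VGT3+ cells and 61.6 ± 43.7 TPM in the Pv+ cells (SD, n = 5 each), a difference of -3.32 on the log2 scale.

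**Figure D5:**
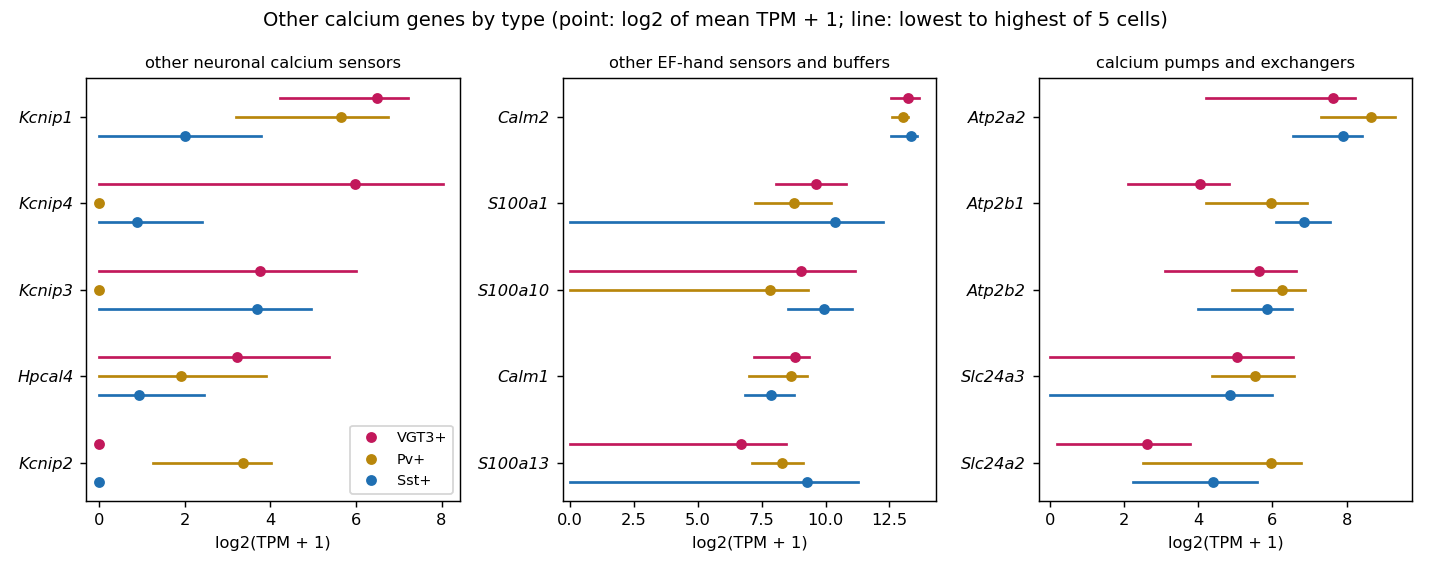
The 5 genes of highest mean TPM in each of 3 lists of other calcium genes, as log2(TPM + 1) of the mean (points) and from the lowest to the highest of 5 cells (lines), for VGT3+, Pv+ and Sst+ cells from top to bottom. The Kcnip1 lines of VGT3+ and Sst+ cells do not overlap, Kcnip2 is above 0 in Pv+ cells alone, and the Calm2 lines of all types overlap.

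Transcripts of other cell types were present in these libraries. Summed TPM of 10 microglia markers was 133 to 18662 in VGT3+, 3666 to 14305 in Pv+ and 0.306 to 4216 in Sst+ cells. Summed TPM of 8 astrocyte markers was 27.6 to 565 in VGT3+, 73.0 to 883 in Pv+ and 57.9 to 2561 in Sst+ cells, and that of 10 oligodendrocyte lineage markers 5.88 to 611, 33.2 to 425 and 59.1 to 1299 in VGT3+, Pv+ and Sst+ cells. Of the pyramidal and granule cell markers, Slc17a6, Neurod2, Neurod1, Tbr1 and Emx1 were listed at 0 in all cells. In the same list, Camk2a was above 0 in 13 cells, Neurod6 reached 67.9 TPM in a VGT3+ cell and Nrgn 115 TPM in an Sst+ cell, and Wfs1 was listed at 0 in VGT3+ cells, ranged from 2.35 to 50.6 TPM across Pv+ cells and reached 10.4 TPM in an Sst+ cell. The list summed to 0 to 72.3 TPM in VGT3+ cells, 13.5 to 55.9 TPM in the Pv+ cells and 0.0149 to 115 TPM in the Sst+ cells. The 7 GABAergic markers summed to 905 to 1964 TPM in VGT3+, 653 to 940 TPM in Pv+ and 565 to 1344 TPM in Sst+ cells. The microglial part of Pv+ and VGT3+ libraries thus reached higher than that of Sst+ libraries, and its part in the differences of the 10 genes was not tested.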

How the data were processed

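The deposited values are TPM for every gene in each cell, made by the authors from SMART-Seq HT and Nextera XT libraries of 15 single cells: reads were de-multiplexed with bcl2fastq, aligned to GRCm38 with HISAT2 2.1.0, counted per Ensembl gene (release 78) with HTSeq and divided by gene length in R. Each column summed to 1e+06 and was used as deposited, so transcripts of a few abundant genes or of other cells lower all other values. Depth was estimated from the steps between low TPM values and GENCODE M21 lengths, found for 97.3% of genes. Among values of fewer than 50 reads by this estimate, 72.0 to 76.3% per cell were whole to within 0.01. The limit given for a 0 is what 3 reads would have measured, which allows for counting error alone.

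Means, SDs and differences of mean log2(TPM + 1) were computed in Python (3.11.15) using numpy (2.4.6) and pandas (2.3.3), and the steps were tested on simulated data. The named genes are the 10 members, the 2 genes of highest r to each member, up to 5 genes of each list of other calcium genes and the defining markers. Members and lists were chosen with earlier results of these data known. Of the GABAergic list, 1 symbol stood for more than 1 gene and was left out, and 1 gene of the marker lists is not reported here. Alternatives were code G709 alone, leaving out each cell, a pseudocount of 0.1, rescaled TPM, size factors, medians, other minimum levels, and other measures of likeness.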

Additional observations from a re-analysis of the deposited data

Results flagged for a closer look

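In 10 of 26 groups of 5 cells with values above 0, 1 cell stood far from the other 4 by Dixon's criterion, which by chance flags about 1 in 20 groups of normally distributed values. TPM of single cells with many zeros are not so distributed, and the number of such groups is not read against chance. Among Pv+ cells, cell 4 had Pvalb at 7383 TPM (next 4293 TPM) and Necab1 at 23.7 TPM (next 3.57 TPM). Among VGT3+ cells, cell 3 had Necab1 at 1255 TPM (next 322 TPM), cell 2 had Necab2 at 221 TPM (next 22.4 TPM), and cell 1 had Hpcal1 at 70.7 TPM with the other cells listed at 0. These 3 VGT3+ cells are the ones of library code G556. Among Sst+ cells, cell 4 had Pvalb at 55.1 TPM (next 0.643 TPM) and Calb1 at 2.83 TPM (next 0.0251 TPM), and cell 2 had Necab2 at 56.8 TPM (next 5.84 TPM), Ncald at 285 TPM (next 74.5 TPM) and Necab1 at 0.277 TPM, which is 13 reads.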

How the results depend on the processing

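Of 600 values of the 30 differences between types under the alternatives, 592 moved by less than the spread between cells (1 SD), 7 moved by more and 1 difference past the fold reversed. Many of the 592 could not move. Leaving out a cell of the third type changes no difference between the other types. All Pv+ and Sst+ cells carry G709, so their differences are the same within that code. Among the differences under the fold, 25 values took the other sign, and these belong to 10 differences. Among them were those of Ncald and Ncs1 for VGT3+ minus Pv+ cells within G709. Those of Necab2 for VGT3+ minus Pv+ cells after both rescalings were also among them. Among the 12 differences past the fold, 235 of 240 values stayed past it, and the 5 that did not were all of Vsnl1. The 235 also include values that could not move. Within library code G709 the difference of Vsnl1 in VGT3+ minus Sst+ cells was 0.92. Members without overlap there numbered 5 for VGT3+ and Pv+ and 3 for VGT3+ and Sst+ cells, with Hpca among them. These counts set 2 VGT3+ cells against 5 cells, and ranges of fewer cells separate more easily. No share of all genes was taken for this setting, so the counts are not read as a result about the members. Differences under the fold also passed it under some alternatives. With medians over cells, 7 members passed the fold between VGT3+ and Pv+ cells, with Necab2, Hpca and Hpcal1 in addition. After rescaling without mitochondrially encoded genes and the 10 most abundant genes, Ncald and Hpcal1 passed it for this pair, at -2.10 and -2.21. No share of all genes was taken for medians or for this rescaling, so these calls are not read as a result about the members. Leaving out each cell in turn gave 1 to 2 members without overlap between VGT3+ and Sst+ cells. It was 2 without VGT3+ cell 3 or without Sst+ cell 2. Here too ranges of fewer cells separate more easily and no share of all genes was taken. These counts are therefore not read as a result about the members. The summed TPM of Pv+ cells was 7476 after rescaling without mitochondrially encoded genes and the 10 most abundant genes, and 486 without Pvalb. The causes were not tested beyond these constructions. The share of all genes past the fold between VGT3+ and Pv+ cells was 11.6% with no minimum level and 25.2% at a minimum mean of 10 TPM. Values of 1 to 6 reads are at the limit of depth, and over 15 cells members also followed the number of genes above 0 (r from -0.33 to 0.60) or of reads (r from -0.53 to 0.55). No paired analysis was possible because no result comes from a test and replicate numbers only name cells.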

Other observations

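Calb1 and Necab1, the pair of members highest in VGT3+ cells, lie on the same chromosome: the end of Necab1 and the start of Calb1 (GRCm38, chromosome 4) are 731469 bases apart, and Tmem64 is the single protein-coding gene listed between them. Tmem64 averaged 32.3 TPM in the VGT3+ group and 3.01 TPM in the Pv+ group, was listed at 0 in the Sst+ group and was above 0 in 4 of 15 cells. After subtraction of type means, r of Calb1 with Necab1 was -0.31 over 15 cells. Calb1 was listed at 0 in all Pv+ cells, and VGT3+ cell 3 had Calb1 at 0 with Necab1 at 1255 TPM. Across VGT3+ cells 1, 2, 4 and 5, Calb1 was at 167, 22.4, 409 and 217 TPM. Necab1 was at 84.8, 56.5, 322 and 298 TPM there, in the same order. Whether the 2 genes vary together within a type was not tested.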
